A study of Homo sapiens with 2 samples.

Results

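Liver-specific gene clusters are 8 stretches of the human genome that hold genes for plasma proteins, apolipoproteins and enzymes of drug and alcohol metabolism. They were taken as every bin of 1 kb inside fixed limits on hg19, which gave 2755 bins. Of these 2715 were listed in at least 1 library, of 2600564 such autosomal bins in all, and 40 were absent from both. The study mapped H3K27me3, a methylation mark on histone H3, by ChIP-seq. The cells were HCT116, an established line from a human colorectal carcinoma. They form 1 group of 2 libraries that the labels call biological replicates, with no treatment or genetic change named, so every value describes this 1 line and no other cell was compared. Liver cells and an input library were not analysed here. Expression was not measured, so the identity of the cells could not be checked against markers. Nothing shows how separate the replicates' cultures were, and the spread between them may be technical.

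Polycomb repressive complex 2 writes H3K27me3, and the mark is known from genes that are kept silent, often developmental regulators with promoters rich in CG dinucleotides. Liver genes are known for promoters poor in CG that are switched on by hepatocyte transcription factors, and many are silent in most other tissues. Some genes of these clusters, such as CYP3A forms and APOA4, are also expressed in the gut. A gene can be silent with or without H3K27me3. The question put to these data was which of the liver clusters carried the mark in a colon cancer line.

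Replicate 1 held 53187504 reads and replicate 2 held 97031399 reads. The level of a bin is its read count, with an absent bin as 0, over the library's mean of listed autosomal bins, which came to 22.002 reads for replicate 1 and 37.5 for replicate 2. At a level of 2, counting error was 15.1% and 11.5% of the value, and an absent bin allows a level of up to 0.136 and 0.0799 (3 reads). These figures cover counting error alone. They treat each read as a separate count, and would be larger if both reads of a pair were counted. No level is corrected for copy number or mappability. Many of these genes have near-identical neighbours, and the filter on mapping quality is not given in the sources used here, so levels over paralogs are uncertain.

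The promoters below are shown because they set the marked and unmarked genes side by side. Each is the 250 bases before the gene start, from RefSeq on GRCh38.p14, with CG dinucleotides in capitals, a motif that reads the same on both strands. Marked means an average of at least 2 over the 5 bins around the gene start in both libraries. The promoters of SERPINA11 (chr14:94452801-94453050, minus strand), SERPINA12 (chr14:94517845-94518094, minus), CYP3A4 (chr7:99784185-99784434, minus) and CYP3A43 (chr7:99827763-99828012, plus) belong to marked genes.
SERPINA11: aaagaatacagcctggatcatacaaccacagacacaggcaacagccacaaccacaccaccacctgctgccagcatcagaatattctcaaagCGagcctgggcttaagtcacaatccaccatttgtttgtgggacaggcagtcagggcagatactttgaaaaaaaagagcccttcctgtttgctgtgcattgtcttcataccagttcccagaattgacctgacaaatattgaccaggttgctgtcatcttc
SERPINA12: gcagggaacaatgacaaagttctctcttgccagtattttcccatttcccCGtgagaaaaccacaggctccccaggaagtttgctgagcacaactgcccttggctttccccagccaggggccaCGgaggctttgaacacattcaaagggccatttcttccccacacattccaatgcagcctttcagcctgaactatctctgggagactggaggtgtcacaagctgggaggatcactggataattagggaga
CYP3A4: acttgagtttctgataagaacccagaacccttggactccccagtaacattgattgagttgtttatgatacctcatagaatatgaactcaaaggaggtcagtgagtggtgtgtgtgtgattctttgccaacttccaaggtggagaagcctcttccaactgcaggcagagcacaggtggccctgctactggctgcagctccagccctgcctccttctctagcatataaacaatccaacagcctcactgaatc
CYP3A43: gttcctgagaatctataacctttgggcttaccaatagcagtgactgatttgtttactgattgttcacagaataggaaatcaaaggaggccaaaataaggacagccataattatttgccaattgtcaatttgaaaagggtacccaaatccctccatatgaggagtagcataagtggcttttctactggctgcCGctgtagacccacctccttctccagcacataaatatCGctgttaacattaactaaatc
The unmarked promoters are those of CYP3A5 (chr7:99679997-99680246, minus), a close relative of CYP3A4, and ALB (chr4:73404037-73404286, plus).
CYP3A5: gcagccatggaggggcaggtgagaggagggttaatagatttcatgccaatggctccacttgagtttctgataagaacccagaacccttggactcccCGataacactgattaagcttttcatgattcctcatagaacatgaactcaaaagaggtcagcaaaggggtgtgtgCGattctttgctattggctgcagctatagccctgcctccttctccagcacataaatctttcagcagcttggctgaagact
ALB: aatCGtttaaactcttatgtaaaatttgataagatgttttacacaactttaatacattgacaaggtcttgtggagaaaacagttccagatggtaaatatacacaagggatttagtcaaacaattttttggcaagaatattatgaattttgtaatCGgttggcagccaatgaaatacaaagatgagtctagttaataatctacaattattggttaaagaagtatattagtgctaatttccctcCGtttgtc
ADH5 (chr4:99088789-99089038, minus) and BUD13 (chr11:116772988-116773237, minus) are broadly expressed genes that lie inside the windows and were also unmarked.
ADH5: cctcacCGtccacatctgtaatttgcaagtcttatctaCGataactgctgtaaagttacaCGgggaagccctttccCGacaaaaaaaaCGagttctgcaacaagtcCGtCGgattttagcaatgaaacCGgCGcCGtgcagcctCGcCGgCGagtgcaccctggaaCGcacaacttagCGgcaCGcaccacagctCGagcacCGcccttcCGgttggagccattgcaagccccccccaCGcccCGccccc
BUD13: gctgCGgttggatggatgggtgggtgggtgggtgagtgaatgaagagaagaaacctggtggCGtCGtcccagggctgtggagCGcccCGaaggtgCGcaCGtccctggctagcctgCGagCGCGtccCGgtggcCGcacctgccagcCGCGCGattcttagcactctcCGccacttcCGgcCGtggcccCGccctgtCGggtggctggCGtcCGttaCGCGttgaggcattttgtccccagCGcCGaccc

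The marked promoters were poor in CG. SERPINA11 held 1 CG, SERPINA12 held 2, CYP3A43 held 2 and CYP3A4 held 0, and the fifth marked gene, SERPINA10, held 4. Unmarked CYP3A5 held 2 and ALB held 3, so a low count of CG was found on both sides. Sequences were matched for 37 of 41 genes. The median was 2 CG both in the 5 marked promoters and in the 32 unmarked ones, against 11 over all 27305 promoters of the table. At most 5 CG were found in 5 of 5 marked and 25 of 32 unmarked promoters, and in 38.7% of all promoters. At least 1 CG was present in 30 of the 37 (81.1%) and in 93.6% of all promoters. Only ADH5 with 21 and BUD13 with 26 reached 20 among the 37, as 32.1% of all promoters did. ZPR1, which encodes a zinc finger protein, held 19. The promoter level of BUD13 was 0.036 in replicate 1 and 0.059 in replicate 2, resting on 4 and 11 reads. These letters cover 250 bases, while a level covers 5 kb, and CG content outside those bases was not examined.

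**Figure D1:**
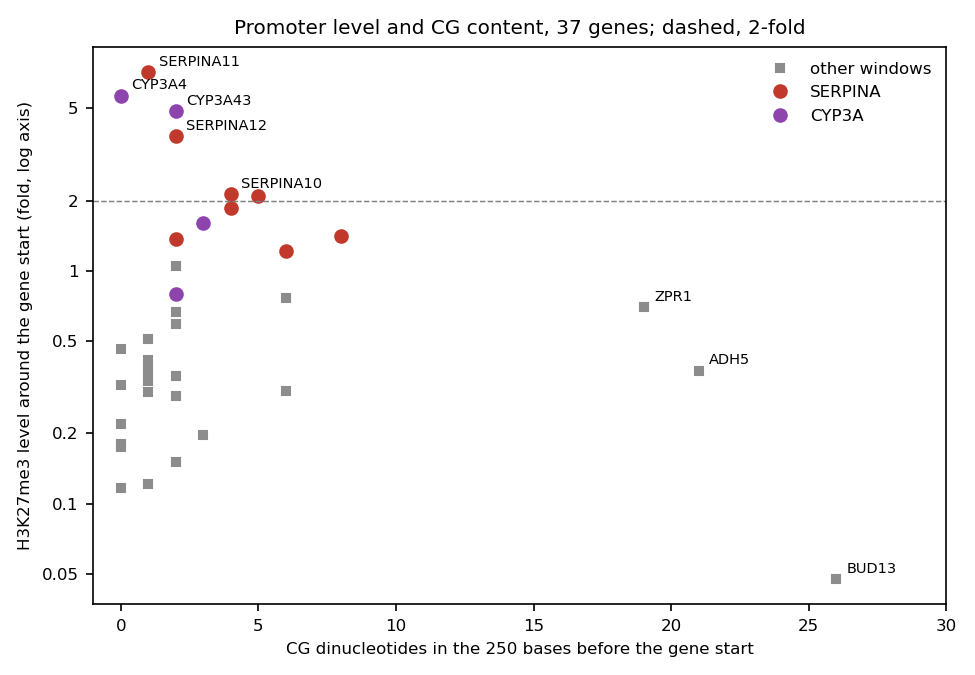
Each point is 1 of 37 genes with a promoter sequence: the number of CG dinucleotides in 250 bases (horizontal) against the mean H3K27me3 level of both libraries over 5 bins around the gene start (vertical, log axis, fold). The 5 marked genes hold 0 to 4 CG, and the promoters of ZPR1, ADH5 and BUD13, with 19 to 26, lie below 1-fold.

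Of the 8 clusters, SERPINA and CYP3A carried broad H3K27me3, and the other windows lay below the mean of listed autosomal bins in both libraries. The SERPINA window on chromosome 14 (94740001 to 95120000) averaged 2.69 in replicate 1 and 2.82 in replicate 2, or 2.75 ± 0.0950 (SD, n = 2). The CYP3A window on chromosome 7 (99240001 to 99470000) stood at 2.12 and 2.22, or 2.17 ± 0.0697. Both were well above their chromosomes, by 3.57 and 3.49 times for SERPINA and by 2.90 and 2.84 times for CYP3A, relative to a chromosome mean that counts absent bins as 0.

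The windows of ALB/AFP, the fibrinogen genes and APOA1/APOC3 were intermediate. ALB/AFP on chromosome 4 (74260001 to 74370000) stood at 0.604 and 0.641, or 0.623 ± 0.0259 (SD, n = 2). FGA/FGB/FGG, the fibrinogen genes on chromosome 4 (155480001 to 155535000), stood at 0.502 and 0.573, or 0.538 ± 0.0499. APOA1/APOC3 on chromosome 11 (116620001 to 116710000) stood at 0.476 and 0.530, or 0.503 ± 0.0382. The libraries' ranges for the fibrinogen and apolipoprotein windows overlapped, so their order was not resolved. Relative to chromosome 4, which had a low mean of 0.492 and 0.530, ALB/AFP stood at 1.23 and 1.21 times and the fibrinogen window at 1.02 and 1.08 times.

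The lowest 3 windows were ADH, CYP2C and UGT2B. ADH, the alcohol dehydrogenases on chromosome 4 (99990001 to 100360000), stood at 0.353 and 0.380, or 0.367 ± 0.0189 (SD, n = 2). CYP2C, a cytochrome P450 family on chromosome 10 (96440001 to 96840000), stood at 0.255 and 0.286, or 0.270 ± 0.0218. UGT2B, glucuronosyltransferases on chromosome 4 (69400001 to 70520000), stood at 0.165 and 0.185, or 0.175 ± 0.0146. SERPINA thus exceeded UGT2B by 16.3 times in replicate 1 and 15.2 times in replicate 2. CYP3A exceeded CYP2C, the other P450 cluster, by 8.33 and 7.77 times. Apart from the fibrinogen and apolipoprotein pair, the libraries' ranges of neighbours in this order did not overlap. With 1 group of 2 libraries there is no test between windows. Replicate 2 was higher in all 8 windows, by 1.05 to 1.14 times, and the means of the 5 chromosomes concerned were higher in it too. The scale leaves absent bins out, these means count them as 0, and replicate 2 listed 2523015 autosomal bins against 2358768. The mean level of replicate 2 over all autosomal bins is thus higher by construction. Relative to the chromosome, SERPINA, CYP3A, ALB/AFP and ADH were lower in replicate 2 and the other windows higher.

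**Figure D2:**
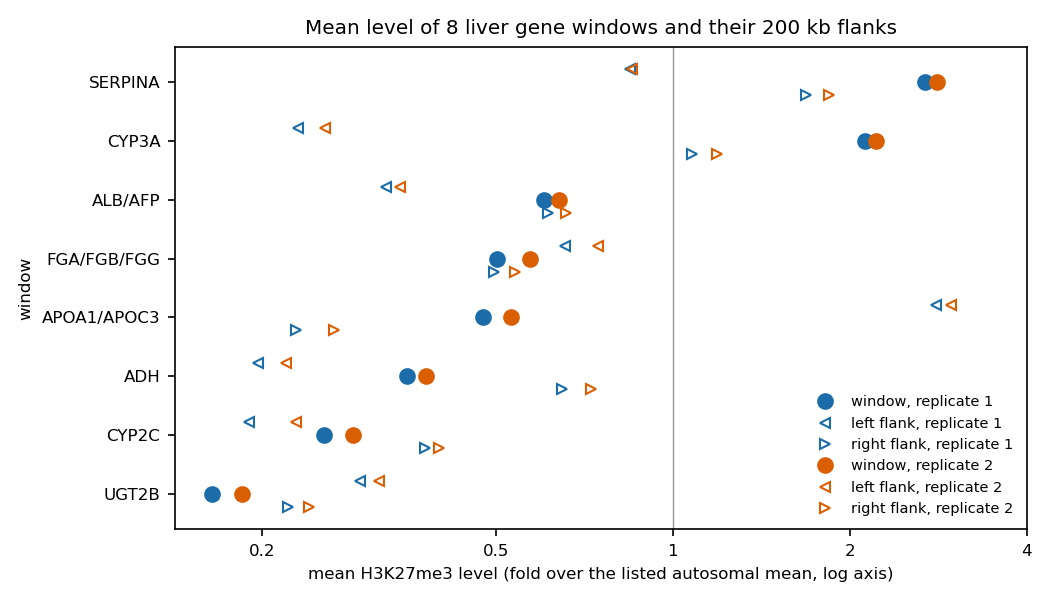
Filled circles give the mean H3K27me3 level (fold over the mean of listed autosomal bins, log axis) of each window in each library, and open triangles the 200 kb on either side. SERPINA and CYP3A lie above 2, the other windows below 1, and the flank of APOA1/APOC3 at lower coordinates stands at 2.81 and 2.98.

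Single bins gave the same division. Enriched bins are those that reached a level of 2 in both libraries and passed a one-sided Poisson test against the listed autosomal mean at 0.05 after Benjamini-Hochberg adjustment over the autosomes. Of all autosomal bins listed in either library 12.7% were enriched. Over the 8 windows together 293 of 2755 bins were enriched (10.6%, or 10.8% of those listed), near that background, so the clusters as a whole did not stand out. SERPINA held 195 enriched bins of 380 (51.3%) and CYP3A held 93 of 230 (40.4%), while the other 6 windows held 5 of 2145 (0.233%). In the windows every bin at 2-fold or more passed the Poisson test too, so the fold minimum alone set these counts. At 3-fold SERPINA held 128 and CYP3A held 53, and with levels scaled to the median listed bin they held 300 and 171, against 1 to 16 in the other windows. Reads of a pair may have been counted one by one, since 67.8% and 67.7% of bins with 1 to 10 reads had even counts. Halving the counts before the test left each window's number as it was. It does not change the fold, which alone set these counts, so the unchanged numbers cannot show how reads were counted.

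No bin was enriched in both libraries in 4 windows. These were UGT2B with 0 of 1120 bins, CYP2C with 0 of 400, APOA1/APOC3 with 0 of 90 and the fibrinogen window with 0 of 55. For independent bins a count of 0 would allow shares of up to 0.268%, 0.75%, 3.33% and 5.45%, but neighbouring bins depend on each other. Leaving out replicate 2 gave the fibrinogen window 1 bin, and leaving out replicate 1 gave APOA1/APOC3 3 bins. The share under 0.5 in both libraries was 54.2% of the autosomal bins listed in either one. With absent bins counted as low it was 93.7% in UGT2B, 79.0% in CYP2C, 66.5% in ADH, 55.6% in APOA1/APOC3, 43.6% in the fibrinogen window and 41.8% in ALB/AFP. It was 11.7% in CYP3A and 5.26% in SERPINA. Over listed bins alone it became 52.9% in APOA1/APOC3 and 10.2% in CYP3A, and the other windows, with 93.5% in UGT2B, moved by less than these. In UGT2B 224 of 1120 bins were absent from replicate 1 and 91 from replicate 2, against 2 and 0 of 380 in SERPINA, and the part of mappability in its low level was not tested.

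**Figure D3:**
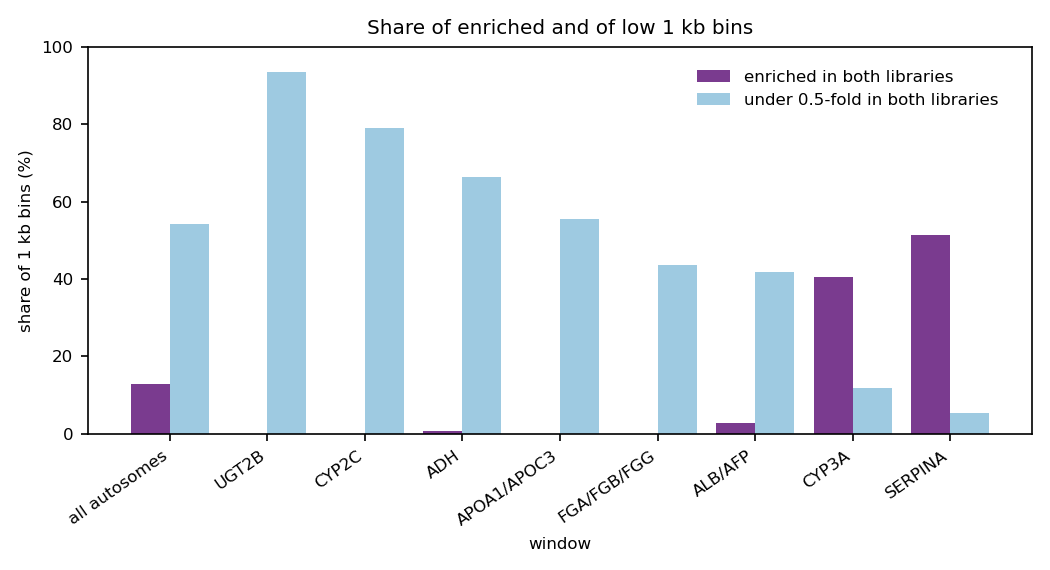
Bars give the share of 1 kb bins (percent) enriched in both libraries and the share under 0.5-fold in both, for autosomal bins listed in either library and for all bins of each window. SERPINA and CYP3A reach 51.3% and 40.4% enriched against 12.7% for the autosomes, and UGT2B reaches 93.7% low against 54.2%.

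Gene places on hg19 were taken from general knowledge, to the nearest kb, because no annotation of that build was used here. Of 44 genes placed in the windows, 41 kept their place relative to the other genes in a gene table, and SERPINA9, UGT2B17 and UGT2B4 were left out. Around the gene start 5 of the 41 genes (12.2%) were marked, where 13.4% of all runs of 5 autosomal bins with at least 1 listed reached the same level. In both libraries 20 genes (48.8%) lay under 0.5, against 57.9% of all such runs. Both shares were near their background. With levels scaled to the median listed bin 12 genes were marked. The 5 marked genes were SERPINA10, SERPINA11, SERPINA12, CYP3A4 and CYP3A43.

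The SERPINA cluster encodes serine protease inhibitors and related carriers, many of them secreted into plasma by the liver. SERPINA11 had the highest promoter level of the 8 SERPINA genes placed here, 6.88 in replicate 1 and 7.40 in replicate 2. Its gene body stood at 6.05 and 6.14, with 10 of 10 bins enriched. SERPINA12, which encodes vaspin, an adipokine, had 3.79 and 3.82 at its start and 26 of 30 body bins enriched. SERPINA1, the gene of alpha-1-antitrypsin and the best known liver product of the cluster, had the lowest promoter level, 1.14 and 1.30. SERPINA11 exceeded it by 6.06 and 5.69 times at the gene start.

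The remaining SERPINA genes lay between these. SERPINA10, an inhibitor of coagulation factors, was marked at 2.09 and 2.19, just inside the limit, and SERPINA6, corticosteroid-binding globulin, lay just outside at 1.85 and 1.88. SERPINA4, kallistatin, was at 1.87 in replicate 1 and at 2.31 in replicate 2, and so passed 2-fold in 1 library. SERPINA5, the protein C inhibitor, had 1.29 and 1.55. SERPINA3, alpha-1-antichymotrypsin, an acute-phase protein, had 1.20 and 1.56. No SERPINA gene start was under 0.5 in either library.

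The mark formed a plateau in the middle of the SERPINA window. The stretch from SERPINA11 to SERPINA12, which in the gene table also holds SERPINA9, stood at 4.45 and 4.70 with 69 of 75 bins enriched (92%). The stretch from SERPINA10 to SERPINA1 stood at 1.47 and 1.53 with 21 of 107 bins enriched, and the one from SERPINA4 to SERPINA3 at 1.74 and 1.92 with 19 of 62. The middle stretch thus differed from both of these gene stretches by far more than the libraries differed from each other. The longest run of enriched bins, joined over gaps of at most 1 bin, covered 106 kb at chr14:94874001-94980000, at 4.33 and 4.57. Another run began 4 kb above the SERPINA1 start and covered 11 kb at chr14:94861001-94872000, at 5.00 and 4.77. Runs at higher coordinates also came near the plateau level, so that side was uneven. They include 10 kb at chr14:95017001-95027000, at 4.01 and 4.39, and 15 kb at chr14:95088001-95103000, at 4.30 and 4.60.

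SERPINA1 itself lay beside this plateau with a dip at its start. The bin chr14:94857001-94858000, where the gene starts, stood at 0.954 and 0.613. Bins inside the gene were higher again, with 3.55 and 4.02 at chr14:94847001-94848000, and the gene body averaged 2.15 and 2.05 with 4 of 14 bins enriched. Between the starts of SERPINA1 and the near end of SERPINA11, 44 of 52 bins were enriched, at 3.89 and 3.93. SERPINA1 has several known start sites, and the place used here is the most upstream.

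The CYP3A genes encode P450 enzymes that oxidise drugs and steroids in liver and gut, and their level differed along the cluster. CYP3A4, the main drug-metabolising form of the adult liver, had the highest promoter level, 5.70 in replicate 1 and 5.65 in replicate 2. CYP3A43, a little expressed relative, had 4.54 and 5.19. CYP3A7, the fetal liver form, had 1.64 and 1.58. CYP3A5, which is expressed more widely outside the liver, had the lowest, 0.745 and 0.842. CYP3A4 exceeded CYP3A5 by 7.65 and 6.71 times at the start and by 6.17 and 5.69 times over the gene body.

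The gene bodies followed that order of high and low. The body of CYP3A4 stood at 3.26 and 3.25 with 21 of 27 bins enriched, and that of CYP3A43 at 2.80 and 3.10 with 25 of 38. The body of CYP3A7 stood at 1.45 and 1.55 with 5 of 30 bins enriched, and that of CYP3A5 at 0.528 and 0.571 with 1 of 32. From CYP3A5 to CYP3A7 the stretch averaged 1.15 and 1.22, and from CYP3A4 to CYP3A43 it averaged 3.08 and 3.19. The longest run covered 33 kb at chr7:99360001-99393000, across most of CYP3A4 and its upstream side, at 4.02 and 4.06. The next covered 18 kb at chr7:99415001-99433000, around the start of CYP3A43, at 4.30 and 4.60.

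**Figure D4:**
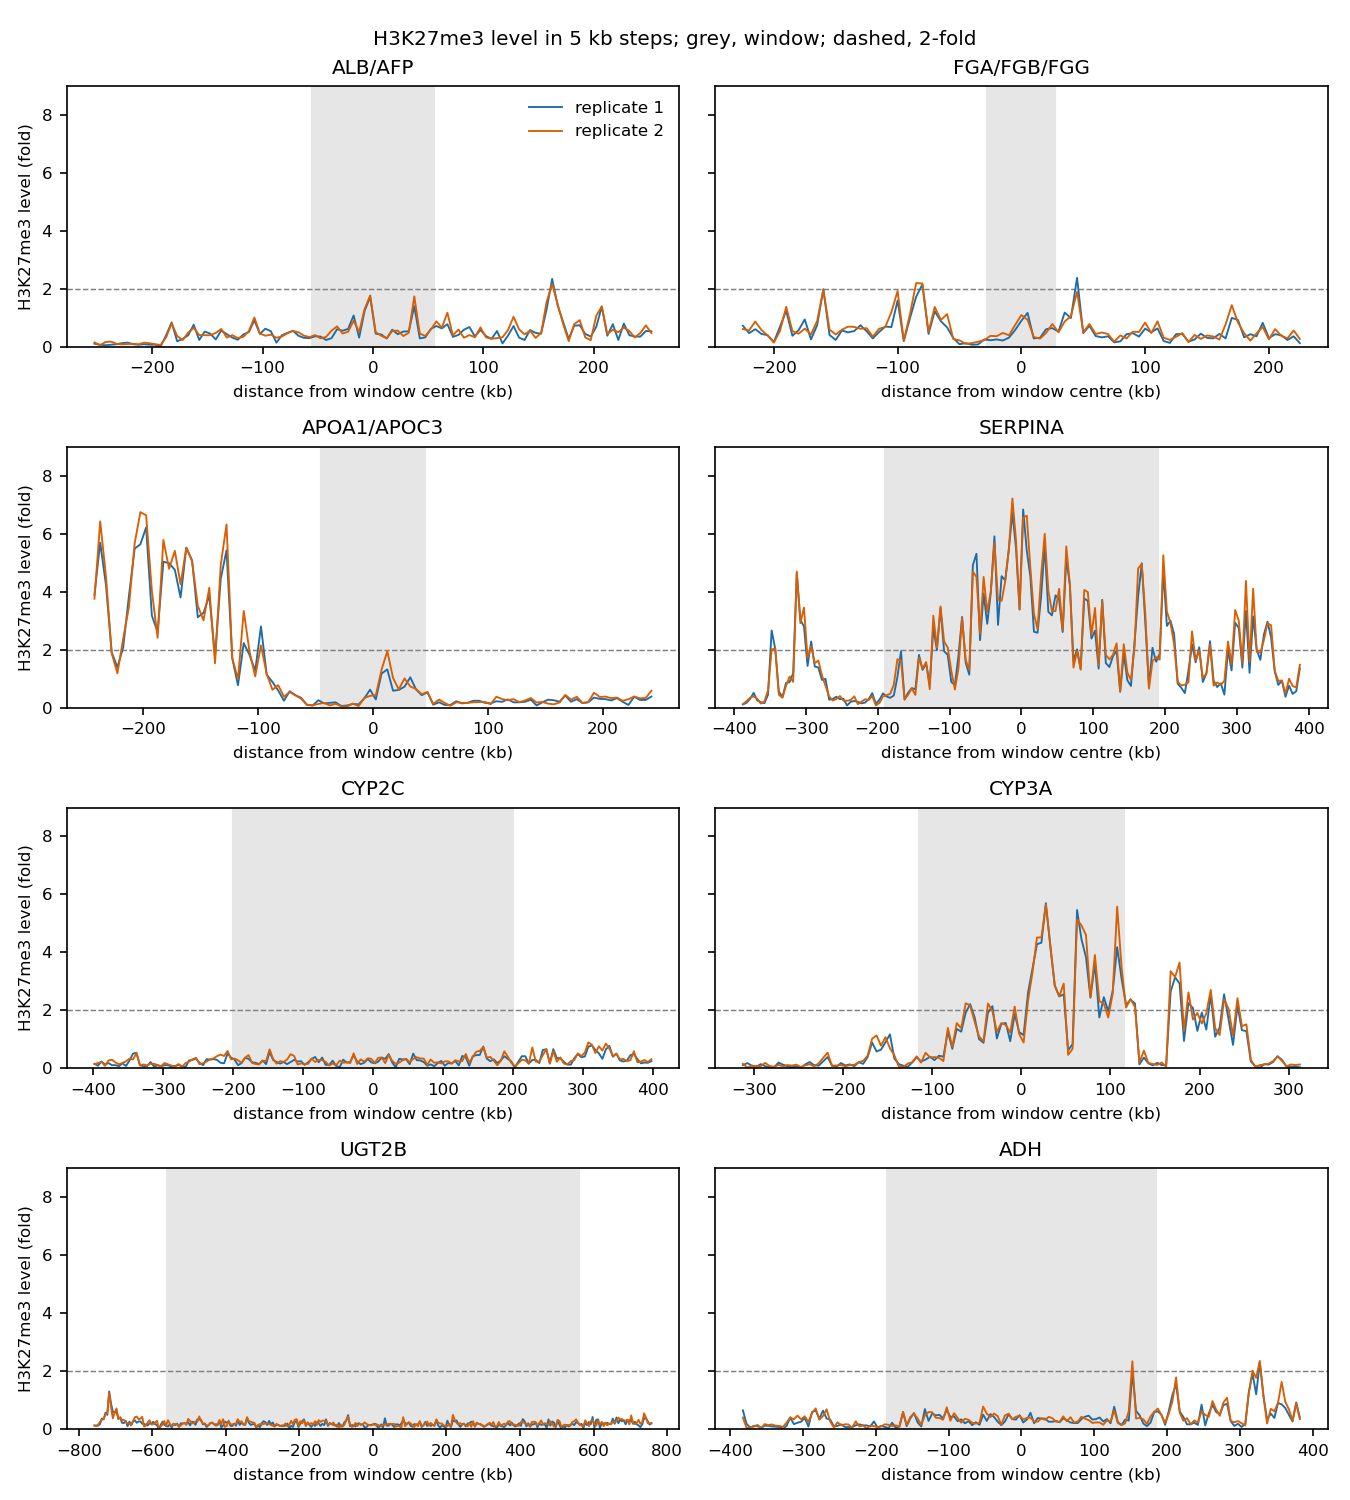
Lines give the H3K27me3 level (fold) of each library in steps of 5 kb against the distance from the centre of each window, with the window in grey and 200 kb of flank on either side. The libraries trace the same shape in SERPINA and CYP3A, where the level passes 2-fold over much of the window, while inside their windows UGT2B reaches at most 0.482 and 0.490 and CYP2C at most 0.754 and 0.735.

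In the albumin window no gene start reached 2-fold, and only ALB lay under 0.5 in both libraries. ALB, the gene of serum albumin, had the lowest promoter level, 0.127 in replicate 1 and 0.266 in replicate 2. AFM, the vitamin E binding afamin, had the highest by the mean of both libraries, 0.536 and 0.485. AFP, the fetal alpha-fetoprotein, had 0.318 and 0.512. Over the gene body AFP stood at 0.925 and 1.01, against 0.430 and 0.547 for ALB, or 2.15 and 1.85 times as high. The 3 enriched bins of the window all lay in AFP, and the highest of them by the mean of both libraries, chr4:74308001-74309000, reached 2.59 and 2.34. This count was small and not stable: leaving out replicate 1 gave 7 bins, which include one in AFM at 1.77 and 2.53, and a minimum of 3-fold or bins of 5 kb gave 0.

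Among the fibrinogen genes, which encode the chains of the clotting protein, FGA was the highest. Its promoter level was 1.17 in replicate 1 and 0.932 in replicate 2, and its body stood at 1.20 and 1.18. FGB was the lowest, with 0.264 and 0.384 at its start and 0.232 and 0.402 over its body. FGG lay between at 0.545 and 0.789. The ranges of FGA and FGB over the libraries did not overlap, and neither gene reached 2-fold.

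The apolipoprotein window was uneven along its length. BUD13, a splicing factor, and ZPR1 are transcribed in most cells as textbook background. The stretch from BUD13 to ZPR1 stood at 0.117 and 0.0936, and that from APOA5 to APOA1 at 0.738 and 0.857, both with 0 enriched bins. In the second stretch the APOA1 body, of only 2 bins, stood at 0.159 and 0.147, near those of BUD13 and ZPR1. The bodies of APOA4 and APOC3, of 3 bins each, stood at 0.757 and 1.05, and at 0.742 and 0.728. With so few bins, whether the genes of this stretch differ in level was not resolved. Over the whole window gene bodies averaged 0.259 and 0.226, against 0.694 and 0.835 for the bins outside them. BUD13, with a body of 25 bins, and ZPR1, with 10, made up most of the 45 gene body bins, so this average is largely theirs. At the gene starts APOA4, an intestinal and hepatic apolipoprotein, had the highest mean of both libraries, 0.736 and 0.799, and BUD13 the lowest. APOC3 and APOA1, the main protein of high-density lipoprotein, had 0.745 and 0.698, and 0.554 and 0.591. The start of ZPR1, which lies about 1 kb from APOA5, was at 0.818 and 0.581, above that of APOA5 at 0.300 and 0.282, while its body was at 0.105 and 0.0799.

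Of the 7 alcohol dehydrogenase genes 6 lay under 0.5 at the start in both libraries. ADH7, the form of the upper digestive tract, had the highest promoter level, 0.591 in replicate 1 and 0.597 in replicate 2. ADH1B, a class I enzyme of ethanol oxidation in liver, had the lowest mean of both libraries, 0.19998 and 0.405. ADH1C, at 0.345 and 0.266, was the lowest in replicate 2, so the libraries differed on which gene was the lowest. Over gene bodies ADH5, the formaldehyde-oxidising form present in most tissues, stood apart at 0.101 and 0.104, whereas the other 6 bodies ranged from 0.280 to 0.445 in replicate 1 and from 0.298 to 0.503 in replicate 2. The choice of BUD13, ZPR1 and ADH5 as a group was made after their values were seen.

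All CYP2C and UGT2B genes placed here had starts under 0.5 in both libraries. CYP2C genes encode P450 enzymes for many common drugs, and of the 3 genes placed here CYP2C8 had the highest promoter level by the mean of both libraries, 0.482 in replicate 1 and 0.437 in replicate 2. CYP2C18, which is little expressed in liver, had the lowest by that mean, 0.227 and 0.298. CYP2C19 had 0.218 and 0.490, so the libraries differed on which gene was the lowest. The bodies of all 3 lay under 0.5 in both libraries. The 7 UGT2B and UGT2A genes placed here, which attach glucuronic acid to steroids and drugs, had starts from 0.127 to 0.164 in replicate 1 and from 0.107 to 0.277 in replicate 2. By the mean of both libraries UGT2A3 was the highest, at 0.164 and 0.277, though other genes shared its value in replicate 1. UGT2B15 was the lowest by that mean, at 0.127 and 0.107. In replicate 1 these starts rest on 14 to 18 reads, so differences among them were not detectable at this depth, and in replicate 2 they rest on 20 to 52 reads.

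**Figure D5:**
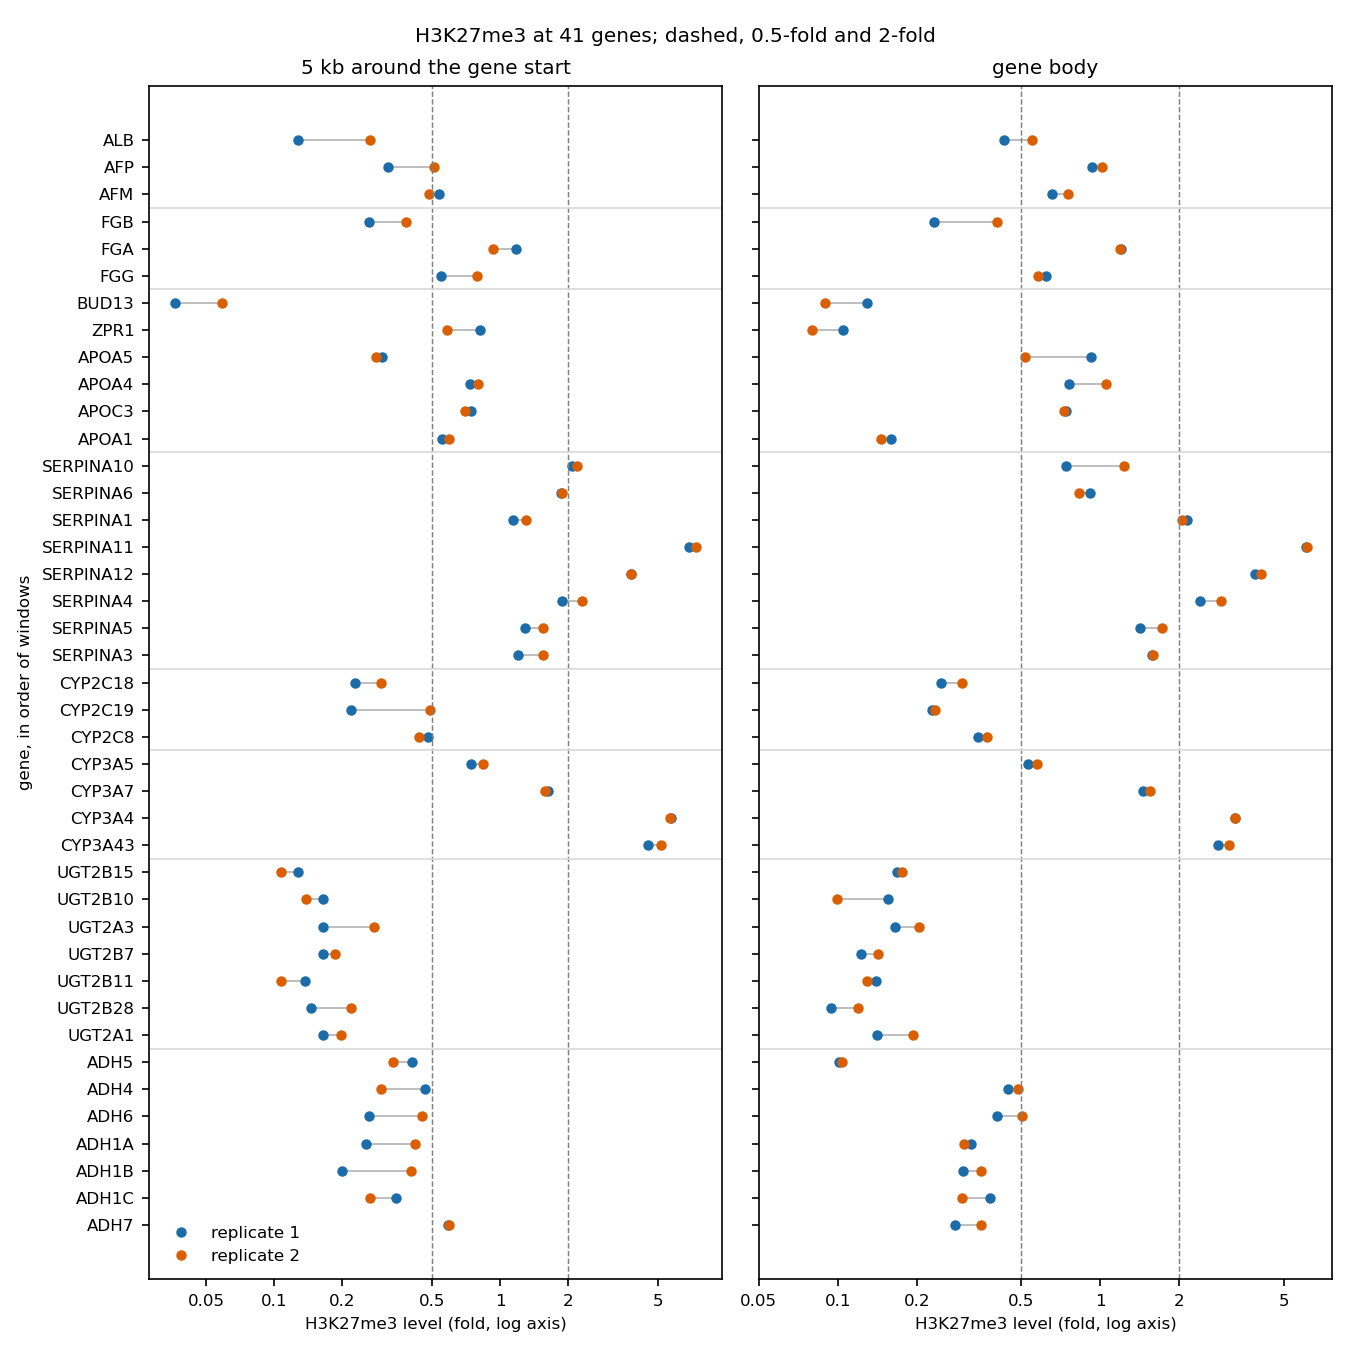
Points give the H3K27me3 level (fold, log axis) of each library over 5 bins around the start (left) and over the body (right) of 41 genes, in the order of the windows, with dashed lines at 0.5 and 2. Levels climb from CYP3A5 to CYP3A4 and peak at SERPINA11, and BUD13, ZPR1 and ADH5 have bodies near 0.1.

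The windows also differed in what lay beside them. Over 200 kb on the side of lower coordinates SERPINA had 0.845 in replicate 1 and 0.853 in replicate 2, and on the other side 1.68 and 1.84, both below the window. The CYP3A window had a low side of 0.231 and 0.256 next to CYP3A5 and a higher side of 1.08 and 1.19 beyond CYP3A43. Over 500 kb these sides came to 0.524 and 0.745 as means of both libraries, so most of their difference went, and the lower side of SERPINA came to 1.40. UGT2B had 0.294 and 0.316 on the lower side and 0.222 and 0.240 on the other, so its low level went on past its limits. APOA1/APOC3 lay below one of its sides. The lower one stood at 2.81 and 2.98 with 110 of 200 bins enriched, while the window had 0 and its other side stood at 0.229 and 0.266.

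The fall towards BUD13 took place outside the apolipoprotein window. The last run of enriched bins ended 52 kb before the window, at chr11:116564001-116568000. From there steps of 10 kb went from 1.01 and 0.887 at chr11:116570001-116580000 to 0.164 and 0.101 at chr11:116610001-116620000. Inside the window the level came back to 1.25 and 1.63 at chr11:116670001-116680000, between APOA5 and APOA4, and did not reach 2 over any step.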

How the data were processed

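Per the labels' protocols, HCT116 cells were fixed with formaldehyde and DNA was pulled down with an antibody to H3K27me3. Per the submitters' processing notes, BWA 0.7.12 placed the reads on hg19. The authors deposited raw read counts per bin of 1000 bases for each library, without bins that hold no read; the sources used here do not give the counting tool or any filter on duplicates and mapping quality.

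Counts were used as deposited on chromosomes 1 to 22. Levels, the Poisson calls, runs of enriched bins and means over genes were computed with scipy 1.17.1, numpy 2.4.6 and pandas 2.3.3 under Python 3.11.15, and figures with matplotlib 3.10.9, and the calling was tested on simulated data. No gene positions on hg19 were in the sources used here. Gene places come from general knowledge, rounded to 1 kb. They were checked against a GRCh38.p14 RefSeq table for chromosome, order, strand and spacing, with a tolerance of 2 kb; kept genes deviated by at most 0.671 kb. Per window, the genes with the highest and lowest promoter level were to be named with both libraries, and others were added after values were seen. Some genes of the windows are not reported here. The windows and gene lists were chosen with earlier results of these data known.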

Additional observations from a re-analysis of the deposited data

How the results depend on the processing

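Levels were taken as the same within 1 SD of the libraries and counts within 1.5 times. Of 157 alternatives 93 left a value the same, 64 moved it and 0 reversed it. With n = 2, a level with 1 library left out always lies within 1 SD, so those alternatives were the same by construction. Halving the counts leaves the fold that set the enriched kb unchanged, so those alternatives carry little information too. A level that crossed 1 was counted as moved. The causes of the moves were not tested, except that a lower or higher threshold or scale changes calls by construction. Scaled to the median listed bin, the mean level became 1.60 in ALB/AFP, 1.38 in the fibrinogen window, 1.29 in APOA1/APOC3, 7.06 in SERPINA, 0.695 in CYP2C, 5.57 in CYP3A, 0.450 in UGT2B and 0.941 in ADH, and the enriched kb became 16, 6, 16, 300, 4, 171, 1 and 11. The 5 marked genes then became 12. Scaled to the chromosome, the level became 1.22 in ALB/AFP, 1.05 in the fibrinogen window, 3.53 in SERPINA, 0.234 in CYP2C, 2.87 in CYP3A, 0.342 in UGT2B and 0.717 in ADH, which places the first pair at or above 1. With absent bins left out it became 0.566 in APOA1/APOC3, 0.293 in CYP2C, 0.204 in UGT2B and 0.388 in ADH. With bins listed in both libraries as the scale, a choice made after the data were seen, it became 0.588 in ALB/AFP, 2.60 in SERPINA, 2.05 in CYP3A and 0.346 in ADH. Windows widened by 10 kb gave 0.453 in APOA1/APOC3 and 2.10 in CYP3A, and narrowed ones 0.669 in ALB/AFP and 0.5505 in APOA1/APOC3. At a minimum of 3-fold the enriched kb became 128 in SERPINA, 53 in CYP3A, 0 in ALB/AFP and 1 in ADH. At 1.5-fold it became 7 in ALB/AFP, 1 in the fibrinogen window and 2 in APOA1/APOC3, and in bins of 5 kb 0 in ALB/AFP and 5 in ADH. With 1 library left out, it ranged from 4 to 7 in ALB/AFP, 0 to 1 in the fibrinogen window, 0 to 3 in APOA1/APOC3, 209 to 218 in SERPINA, 104 to 106 in CYP3A and 2 to 3 in ADH, and the marked genes from 5 to 6. All 16 flank levels moved with 500 kb of flank: by over 1.5 times to 0.651 on the lower side of ALB/AFP, 1.40 on that of SERPINA, 0.404 and 1.17 on both sides of CYP2C and to 0.524 and 0.745 on both sides of CYP3A. No paired analysis was possible because only 1 group exists.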

Other observations

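Outside the broad SERPINA and CYP3A marks, a narrow spot stood out in the alcohol dehydrogenase window. The pair of bins at chr4:100327001-100329000, between ADH1C and ADH7, held 3.70 in replicate 1 and 4.40 in replicate 2. Its upper bin reached 4.86 and 5.14, while the bin just below the pair was at 0.49994 and 0.160 and the one just above at 1.64 and 2.32, past 2-fold in replicate 2 alone. The gene bodies on either side, ADH1C and ADH7, were at 0.381 and 0.298, and at 0.280 and 0.350. It was picked because it was the highest point of a low window.

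In SERPINA and CYP3A the mark was not restricted to the genes placed there. The bins outside those gene bodies averaged 2.76 and 2.89 in SERPINA and 2.27 and 2.34 in CYP3A, against 2.51 and 2.65, and 2.01 and 2.13, over gene bodies. SERPINA9, whose body was not placed, counts among the bins outside. In ALB/AFP and the fibrinogen window gene bodies were the higher part on average, with 0.680 and 0.780, and 0.648 and 0.692, against 0.514 and 0.475, and 0.362 and 0.459, outside them. Not every gene followed this. The bodies of FGA and FGG lay above the bins outside, but that of FGB, at 0.232 and 0.402, lay below them. The bodies of AFP and AFM lay above, and that of ALB, at 0.430 and 0.547, lay below in replicate 1 alone. In APOA1/APOC3 gene bodies were the lower part, as given above, where BUD13 and ZPR1 held most of the gene body bins. In UGT2B gene bodies stood at 0.143 and 0.168 against 0.169 and 0.189, a small gap at levels of few reads. UGT2B4 and UGT2B17, whose bodies were not placed, count among the bins outside there. In ADH gene bodies stood at 0.317 and 0.344 against 0.371 and 0.398. ADH5, with a body at 0.101 and 0.104, held 18 of those 123 gene body bins. Across bins, which neighbour each other and share a library, Pearson's r between the libraries was 0.935 in SERPINA and 0.935 in CYP3A, and 0.440 in CYP2C and 0.223 in UGT2B, where most bins held few reads.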
